A study of Mus musculus with 30 samples.

Results

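The genes described here are 9 enzymes that are widely used as readouts of the nuclear receptor PPAR alpha in liver: *Acot1*, *Acot2*, *Acot3*, *Acot4*, *Ehhadh*, *Vnn1*, *Pdk4*, *Cyp4a10* and *Cyp4a14*. They were taken by symbol from the 55450 genes of the count table, and each symbol matched 1 row. Their mRNA levels were read in whole livers of male mice on a C57BL/6N background fed HFCFD, a diet rich in fat, cholesterol and fructose that brings on fatty liver disease. There were 3 experiments, which the series' design text calls batches, with 5 *Cebpa* fl/fl control mice and 5 knockout mice in each, and 1 stranded poly(A) library per mouse. In HFCFD2W, *Cebpa* ΔHep mice, in which an albumin-driven Cre removes *Cebpa* in hepatocytes, were fed the diet for 2 weeks. In HFCFD8W+T10D, *Cebpa* ΔHep,ERT2 mice, which carry a tamoxifen-activated Cre under the albumin promoter, were given tamoxifen for the last 10 days of feeding. The labels of that experiment name 8 weeks of diet, and do not say whether the 10 days are included. In HFCFD12W+T10W, the same strain was fed for 22 weeks with tamoxifen during the last 10 weeks. The floxed *Cebpa* alleles are shared by all 6 groups, and the controls of both inducible experiments carry the same treatment label as the knockout mice. No chow-fed mouse is among the 30 libraries, and the age of the mice at the start of feeding is not given in the sources used here.

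PPAR alpha is activated by fatty acids and, paired with a retinoid X receptor, binds DNA at direct repeats of AGGTCA spaced by 1 base. In fasting or when fat reaches the liver, it switches on enzymes of fatty acid uptake, activation and oxidation in peroxisomes, mitochondria and the endoplasmic reticulum. *Cyp4a10* and *Cyp4a14* are microsomal omega-hydroxylases that start the oxidation of fatty acids from their far end, and *Ehhadh* is the peroxisomal bifunctional enzyme that carries out the middle steps of beta-oxidation. The type I acyl-CoA thioesterases split acyl-CoA into free acid and coenzyme A: *Acot1* in the cytosol, *Acot2* in mitochondria, and *Acot3* and *Acot4* in peroxisomes. *Vnn1* is a membrane-bound pantetheinase that helps to recycle the vitamin part of coenzyme A. *Pdk4* is a mitochondrial kinase that shuts off pyruvate dehydrogenase, so that fat is burned in place of sugar. C/EBP alpha, the protein lost in the knockout mice, is a transcription factor of differentiated hepatocytes.

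Levels are given as CPM, the share of a gene in its library's total after edgeR's TMM scaling of the totals. A gene passed where edgeR's quasi-likelihood test gave a Benjamini-Hochberg adjusted p under 0.05 over all genes tested. Library totals ran from 7996128 to 10257366 counts. *Cebpa* itself was at 2.68%, 11.9% and 18.6% of the control mean in the knockout mice of HFCFD2W, HFCFD8W+T10D and HFCFD12W+T10W, with no overlap between genotypes, so the labels held. The hepatocyte markers summed to 49400 to 60200 CPM in the knockout mice of HFCFD12W+T10W against 92900 to 113000 CPM in their controls, while cholangiocyte markers summed to 747 to 1050 against 41.5 to 56.7 CPM and stellate cell markers to 1200 to 1510 against 309 to 394 CPM. There 4 of 8 hepatocyte markers tested were lower, and 7 of 7 cholangiocyte, 8 of 8 stellate cell and 5 of 8 macrophage markers higher, with 1 macrophage marker lower and a macrophage sum of 832 to 995 against 254 to 734 CPM. In HFCFD8W+T10D, 3 of 8 hepatocyte markers were lower and their sum was 55900 to 109000 CPM against 108000 to 132000 CPM, and in HFCFD2W 0 were lower and the sum was 112000 to 163000 CPM against 105000 to 134000 CPM. Higher in HFCFD8W+T10D were 4 of 6 cholangiocyte markers (149 to 358 against 39.7 to 59.9 CPM), 4 of 8 macrophage markers (890 to 1780 against 537 to 1030 CPM) and 2 of 8 stellate cell markers (571 to 1160 against 348 to 622 CPM). Higher in HFCFD2W were 1 of 2 cholangiocyte markers tested (376 to 663 against 34.6 to 77 CPM for all 7), 2 of 7 macrophage markers (221 to 367 against 187 to 265 CPM) and 0 of 8 stellate cell markers (155 to 340 against 157 to 306 CPM). The cholangiocyte marker that passed there was *Spp1* (3.6, adjusted p = 1.72e-06), while *Sox9* did not pass (0.23, adjusted p = 0.666). *Spp1* was also among the higher markers in both induced experiments (2.59 and 4.16). The paper places the rise of *Spp1* on this diet mostly in hepatocytes. The cholangiocyte sums, which include *Spp1* in every experiment, are therefore no clear measure of cholangiocytes. The part of these shifts in the results was not tested. In such whole-liver samples, fewer hepatocytes and less of an mRNA per hepatocyte cannot be told apart. Of the 6 adipocyte markers, *Adipoq*, *Lep*, *Retn* and *Plin1* were at 0 in every library, while *Cfd* (-1.96, -4.23 and -4.74 in the order of the experiments) and *Cdo1* (-0.72, -0.71 and -0.97) were lower in the knockout mice, *Cfd* without passing in HFCFD2W (adjusted p = 0.0747). The list summed to 604 to 747, 513 to 908 and 617 to 773 CPM in the knockout mice against 976 to 1300, 1030 to 1430 and 1130 to 1650 CPM in their controls. With the other 4 at 0, this is the sum of *Cfd* and *Cdo1* alone and no measure of adipocytes. In several of the 9 genes the same libraries stood apart: replicate 5 of the HFCFD8W+T10D controls was high, and replicates 2 and 3 of the HFCFD2W knockout mice were low, so values without them are given where they matter.

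The 9 genes fell into 3 patterns. *Cyp4a10*, *Cyp4a14* and *Acot1* were lower in both experiments with induced knockout, *Acot3*, *Acot4* and *Vnn1* were lower in HFCFD12W+T10W and did not pass in HFCFD8W+T10D, and *Ehhadh*, *Acot2* and *Pdk4* passed in none of the 3 experiments. In HFCFD2W, 1 of the 9 passed, against 16.7% of all genes tested (8.60% higher and 8.09% lower). In HFCFD8W+T10D, 3 of 9 passed, against 17.1% (10.3% higher and 6.85% lower). In HFCFD12W+T10W, 6 of 9 passed, against 51.1% (27.4% higher and 23.8% lower). All of these calls were lower in the knockout mice. No member was higher in any experiment by edgeR's quasi-likelihood test, where the count of higher members at an unadjusted p under 0.05 was also 0. DESeq2 called 0 higher as well. The median log2 fold change over the 9 genes was -0.302, -0.041 and -1.038 in the 3 experiments in this order, beside 0.007, 0.011 and 0.013 over all genes tested. TMM factors were 1.286 to 1.379 in the knockout mice of HFCFD12W+T10W and 0.961 to 1.03 in their controls. With library totals left unscaled, the median of all genes there moved to 0.384, and 5 members passed as lower and 1, *Acot2*, as higher.

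**Figure D1:**
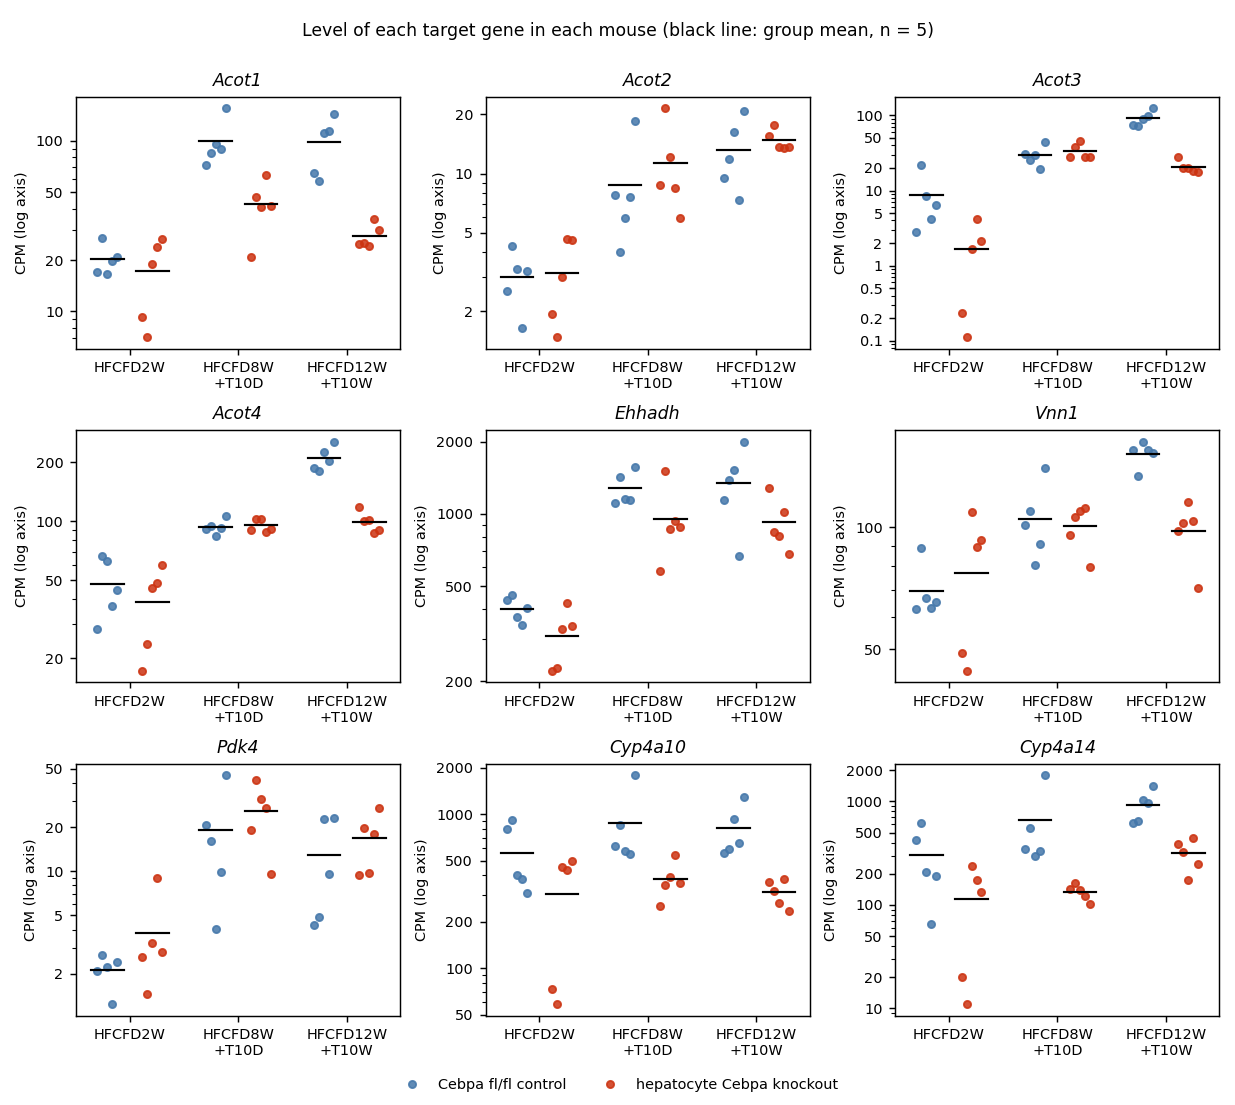
Level of each of the 9 genes in each mouse, as CPM on a log axis, with blue points for *Cebpa* fl/fl mice, red points for knockout mice and a black line at each group mean (n = 5). In HFCFD12W+T10W the genotypes do not overlap for *Acot1*, *Acot3*, *Acot4*, *Vnn1*, *Cyp4a10* and *Cyp4a14*, while they overlap for *Acot2*, *Ehhadh* and *Pdk4*.

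*Cyp4a14* (ENSMUSG00000028715.2) and *Cyp4a10* (ENSMUSG00000066072.13) lie 47.5 kb from end to end on mouse chromosome 4 of GRCm38, *Cyp4a14* at chr4:115486200-115496142 on the minus strand and *Cyp4a10* at chr4:115518264-115533649 on the plus strand. In HFCFD8W+T10D, *Cyp4a14* was at 349, 554, 299.7, 333 and 1801 CPM in the *Cebpa* fl/fl mice. The *Cebpa* ΔHep,ERT2 mice had 144, 163, 138, 122 and 102 CPM. Every knockout mouse lay below every control, and control replicate 5 lay far above the other controls. The log2 fold change was -2.31 ± 0.46 (SE), here and later with its standard error (adjusted p = 0.00518), a 4.95-fold lower level. Without control replicate 5 it was -1.51 (adjusted p = 0.000414). Of the 9 genes, 3 had all knockout mice below all controls in this experiment, against 5.51% of all genes tested.

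In HFCFD12W+T10W, *Cyp4a14* was at 623, 654, 1022, 957 and 1395 CPM in the controls. In the knockout mice it was at 391, 323, 174, 440 and 247 CPM. The groups again did not overlap, and the log2 fold change was -1.52 ± 0.27 (SE, adjusted p = 0.000432). Here 6 of the 9 genes had knockout mice below all controls, against 19.5% of all genes tested. In HFCFD2W, the controls spread from 64.7 to 624 CPM, with values of 428, 624, 209, 64.7 and 188, and the *Cebpa* ΔHep mice had 19.9, 11, 237, 173 and 133 CPM. Those ranges overlapped, as they did for each of the 9 genes in HFCFD2W (6.13% of all genes tested had all knockout mice below all controls). The log2 fold change of -1.40 ± 0.73 did not pass (adjusted p = 0.211). It was -0.74 (adjusted p = 0.391) without the 2 lowest knockout libraries. These were chosen for their low *Cyp4a14* and were the 2 lowest knockout mice in each of the 9 genes. Leaving them out raises the knockout mean of each by construction, so such fits cannot decide whether the genotypes differed.

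*Cyp4a10* ran alongside its neighbour. In HFCFD8W+T10D the controls had 623, 857, 574, 553 and 1798 CPM and the knockout mice 255, 348, 393, 544 and 358 CPM. The highest knockout mouse was just under the lowest control, and the log2 fold change was -1.20 ± 0.32 (adjusted p = 0.0216). This call sat close to the threshold: without knockout replicate 1 the adjusted p was 0.0506, and without control replicate 5 the log2 fold change was -0.77 (adjusted p = 0.0298). In HFCFD12W+T10W the controls had 560.3, 591, 936, 649.8 and 1302 CPM and the knockout mice 365, 316, 263, 379.7 and 234 CPM, a log2 fold change of -1.33 ± 0.23 (adjusted p = 0.000386). In HFCFD2W the *Cebpa* ΔHep mice split into 3 at 434 to 498 CPM, within the control range of 307 to 913 CPM, and 2 at 72.9 and 58.5 CPM. There the log2 fold change of -0.89 ± 0.55 did not pass (adjusted p = 0.292), and was -0.28 without the low pair. Leaving out that pair raises the knockout mean by construction here too. RSEM, which divides a read that fits several genes between them, gave *Cyp4a10* counts that were not whole in 30 of 30 libraries and *Cyp4a14* whole counts in every library. Of the 50-base stretches in *Cyp4a10* transcripts, 24.5% also occur in *Cyp4a32* and 15% in *Cyp4a31*, while 0.235% of those of *Cyp4a14* occur elsewhere.

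The same gene cluster holds close relatives whose estimated levels moved in opposite directions. *Cyp4a32* fell from 20.7 ± 5.98 CPM (SD, n = 5) to 6.52 ± 1.82 CPM in HFCFD12W+T10W, with a log2 fold change of -1.62 ± 0.22 (adjusted p = 5.39e-05). *Cyp4a31* rose there from 5.92 ± 3.40 to 14.4 ± 3.07 CPM, with a log2 fold change of 1.32 ± 0.29 (adjusted p = 0.00221). Both were scarce beside *Cyp4a10*, at a mean of 808 CPM in those controls. *Cyp4a10* transcripts hold 32.6% of the 50-base stretches of *Cyp4a32* and 12.2% of those of *Cyp4a31*. Their counts were not whole in 30 and 29 of 30 libraries, so their single levels are uncertain. The part of divided reads in these 2 changes was not tested. With *Cyp4a10*, *Cyp4a14*, *Cyp4a31* and *Cyp4a32* summed before the test, the log2 fold change was -1.01, -1.54 and -1.40 in HFCFD2W, HFCFD8W+T10D and HFCFD12W+T10W, with adjusted p of 0.246, 0.0124 and 0.000319.

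*Acot1*, *Acot2*, *Acot3* and *Acot4* are neighbours within 72.5 kb of chromosome 12, all on the plus strand, and *Acot1* was lower in both induced experiments while its neighbour *Acot2* did not pass in any. *Acot3* had the largest difference of these neighbours in HFCFD12W+T10W (log2 fold change -2.10). It had no match to the motifs sought under the settings used, and its windows are not printed. The promoters of *Acot1*, *Acot2* and *Acot4* are shown so that the windows of these neighbours with unlike genotype differences can be compared. Each is the RefSeq window from 250 bases before to 50 after the start of the gene in GRCm38.p6, on the plus strand, at chr12:84009252-84009551 for *Acot1*, chr12:83987611-83987910 for *Acot2* and chr12:84038129-84038428 for *Acot4*. Capitals mark matches to TTGCNNAA, the core of a C/EBP site, and to AGGTCANAGGTCA, the direct repeat that PPAR alpha and its partner bind, with up to 2 mismatches.
Acot1: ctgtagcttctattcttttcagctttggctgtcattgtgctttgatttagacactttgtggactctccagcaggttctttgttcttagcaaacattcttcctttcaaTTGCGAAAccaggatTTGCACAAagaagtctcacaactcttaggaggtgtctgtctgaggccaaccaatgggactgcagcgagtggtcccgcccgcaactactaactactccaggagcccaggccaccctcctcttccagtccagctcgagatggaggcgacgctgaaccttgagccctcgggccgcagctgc
Acot2: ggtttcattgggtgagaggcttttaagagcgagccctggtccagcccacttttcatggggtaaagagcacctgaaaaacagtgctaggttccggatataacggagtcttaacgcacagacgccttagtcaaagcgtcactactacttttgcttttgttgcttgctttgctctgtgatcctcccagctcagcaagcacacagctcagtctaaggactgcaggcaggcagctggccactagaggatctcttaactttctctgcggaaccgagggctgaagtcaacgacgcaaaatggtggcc
Acot4: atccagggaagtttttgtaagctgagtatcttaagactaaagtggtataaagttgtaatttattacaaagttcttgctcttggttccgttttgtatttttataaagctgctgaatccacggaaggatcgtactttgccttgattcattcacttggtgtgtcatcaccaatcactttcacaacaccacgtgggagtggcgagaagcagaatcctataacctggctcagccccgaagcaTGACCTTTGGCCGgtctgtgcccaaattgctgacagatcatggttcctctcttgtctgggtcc

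Both strands were searched for each motif in the promoters of all genes in the RefSeq table. The *Acot1* window holds 2 matches to TTGCNNAA, TTGCGAAA beginning 143 bases and TTGCACAA beginning 128 bases before the start, and they do not overlap. At least 1 match to this core is in 10.8% of 32851 promoters. The *Acot4* window holds 1 match to the repeat, on the minus strand with 2 mismatches, beginning 13 bases before the start, and such a match is in 3.86% of promoters. Up to 1 mismatch, 0.554% of promoters hold the repeat, and up to 3 mismatches 24.6%. RefSeq promoters were matched for 6 of the 9 genes, with 2 starts for *Acot3*, and the windows of *Acot2*, *Acot3*, *Ehhadh* and *Pdk4* hold neither motif under these settings. A match describes letters in a short window and says nothing of binding.

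*Acot1* (ENSMUSG00000072949.6, chr12:84009490-84018371) was the most strongly changed of the 4 thioesterases in HFCFD8W+T10D. The *Cebpa* fl/fl mice had 72.3, 84.4, 95.2, 89.5 and 156 CPM, and the *Cebpa* ΔHep,ERT2 mice 20.7, 47.0, 41.2, 62.7 and 41.4 CPM. All 5 knockout mice were below all 5 controls, and the log2 fold change was -1.21 ± 0.26 (adjusted p = 0.00775). In HFCFD12W+T10W the controls had 64.6, 57.8, 110.5, 114 and 143 CPM and the knockout mice 24.9, 25.04, 24.2, 34.6 and 30.1 CPM. The knockout mice were close to each other while the controls spread 2.48-fold, and the log2 fold change was -1.78 ± 0.23 (adjusted p = 3.96e-05). In HFCFD2W both groups were low, with 16.9, 26.9, 16.5, 19.8 and 20.7 CPM in the controls and 9.32, 7.05, 19.04, 23.7 and 26.7 CPM in the knockout mice. The groups overlapped, and the log2 fold change of -0.24 ± 0.30 did not pass (adjusted p = 0.643). It turned to 0.21 without the 2 low knockout libraries, whose removal raises the knockout mean by construction.

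*Acot2* (ENSMUSG00000021226.7, chr12:83987861-83993873), the nearest relative of *Acot1*, gave no call. In HFCFD12W+T10W its level was 9.53, 11.8, 16.3, 7.33 and 20.8 CPM in controls and 15.5, 17.7, 13.7, 13.5 and 13.6 CPM in knockout mice. All knockout values lay inside the control range, and the log2 fold change was 0.20 ± 0.23 (adjusted p = 0.486). In HFCFD8W+T10D it was 0.38 ± 0.40 (adjusted p = 0.571) and in HFCFD2W 0.03 ± 0.34 (adjusted p = 0.967). The ratio of *Acot1* to *Acot2* within a mouse separated the genotypes in both induced experiments. It ran from 4.88 to 15.6, with a median of 6.78, in the HFCFD12W+T10W controls, and from 1.41 to 2.56, with a median of 1.77, in the knockout mice. In HFCFD8W+T10D it ran from 8.43 to 21.1 in controls and from 2.18 to 7.44 in knockout mice. In HFCFD2W the ranges, 5.04 to 12.1 and 4.78 to 6.38, overlapped. *Acot1* and *Acot2* share 13.6% and 24.5% of their 50-base stretches with each other, and RSEM gave counts that were not whole in 29 of 30 libraries for *Acot1* and 30 of 30 for *Acot2*, so the split between them is less certain than their sum. With their counts added, the log2 fold change was -0.99 (adjusted p = 0.0165) in HFCFD8W+T10D and -1.35 (adjusted p = 0.000152) in HFCFD12W+T10W.

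**Figure D2:**
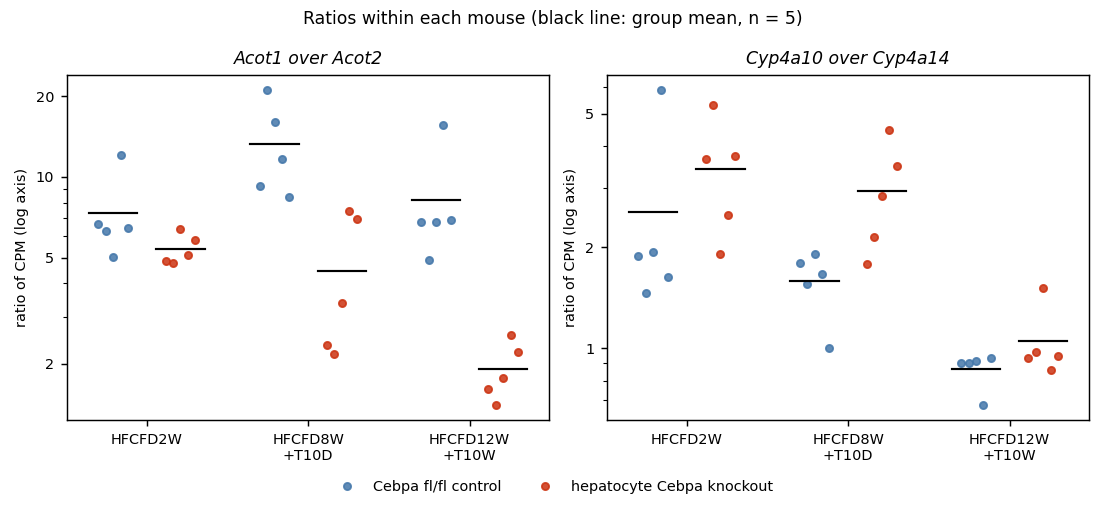
Ratio of the CPM of *Acot1* to *Acot2* (left) and of *Cyp4a10* to *Cyp4a14* (right) in each mouse on a log axis, with blue points for *Cebpa* fl/fl mice, red points for knockout mice and a black line at each group mean (n = 5). The *Acot1* to *Acot2* ratio separates the genotypes in HFCFD8W+T10D (8.43 to 21.1 against 2.18 to 7.44) and HFCFD12W+T10W (4.88 to 15.6 against 1.41 to 2.56), while the *Cyp4a10* to *Cyp4a14* ratio overlaps in all 3 experiments.

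The *Cyp4a10* to *Cyp4a14* ratio was lowest in HFCFD12W+T10W. Its median was 0.905 in controls and 0.949 in knockout mice of HFCFD12W+T10W, 1.66 and 2.85 in HFCFD8W+T10D, and 1.88 and 3.67 in HFCFD2W. Within each experiment the genotypes overlapped, and no test of the ratios was made.

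*Acot3* (ENSMUSG00000021228.15, chr12:84052144-84060402) had the steepest difference in HFCFD12W+T10W. The controls had 73.8, 73.1, 89.2, 97.4 and 125 CPM, and the knockout mice 28.2, 19.9, 19.8, 18.4 and 17.5 CPM. The genotypes did not overlap, and the log2 fold change was -2.10 ± 0.17 (adjusted p = 1.14e-06), a 4.28-fold lower level. In HFCFD8W+T10D the levels were 31.0, 25.1, 30.1, 19.5 and 43.6 CPM in controls and 27.9, 38.2, 44.9, 28.1 and 27.6 CPM in knockout mice. Those groups overlapped, with a log2 fold change of 0.17 ± 0.21 (adjusted p = 0.621). In HFCFD2W, where *Acot3* was least abundant, the controls had 2.82, 21.6, 8.51, 4.14 and 6.45 CPM and the knockout mice 0.237, 0.112, 1.69, 4.22 and 2.15 CPM. The log2 fold change of -2.40 ± 0.67 passed (adjusted p = 0.0285), as the single call in that experiment, and 4 of 5 knockout mice were below all controls. Without knockout replicate 5, the highest of them, the value was -3.13 (adjusted p = 0.0137). The call rested on few counts and on single mice: it was lost when control replicate 2 was left out (-1.76, adjusted p = 0.0817), and when any of knockout replicates 2, 3, 4 or 6 was left out (adjusted p from 0.0514 to 0.0537). It was also lost without both low libraries (-1.68, adjusted p = 0.096), whose removal raises the knockout mean by construction. RSEM gave *Acot3* counts that were not whole in 23 of 30 libraries, and 11% of its 50-base stretches occur in the overlapping gene *Gm49366*.

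*Acot4* (ENSMUSG00000052392.5, chr12:84038379-84048601) varied little between mice in the induced experiments, with a coefficient of variation of 7.61% to 14.4% in those 4 groups. In HFCFD12W+T10W it was at 188, 181.5, 226, 204 and 256 CPM in controls and at 118, 101, 102, 87.3 and 90.4 CPM in knockout mice. The groups stood apart, and the log2 fold change was -1.04 ± 0.11 (adjusted p = 1.02e-05), a 2.05-fold lower level. In HFCFD8W+T10D the values, 91.2, 94.2, 84, 92.5 and 107 CPM in controls and 90.3, 103, 103, 88.4 and 91.8 CPM in knockout mice, overlapped throughout. The log2 fold change of 0.04 ± 0.09 (adjusted p = 0.821) had the smallest standard error of the 9 genes in that experiment. In HFCFD2W the range was 28.4 to 66.2 CPM in controls and 17.3 to 59.8 CPM in knockout mice, with a log2 fold change of -0.30 ± 0.31 (adjusted p = 0.55). Added together with *Acot3*, *Acot5* and *Acot6*, the counts gave -0.48, 0.08 and -1.27 in HFCFD2W, HFCFD8W+T10D and HFCFD12W+T10W, with adjusted p of 0.355, 0.704 and 4.83e-06.

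*Ehhadh* (ENSMUSG00000022853.7, chr16:21761287-21787807, minus strand) shares no 50-base stretch with another gene. Per transcript length it was the most abundant of the 9 in the HFCFD12W+T10W controls, at a mean of 585 TPM against 512 TPM for *Cyp4a10* and 488 TPM for *Cyp4a14*, while in the controls of HFCFD8W+T10D (501 against 509 TPM) and HFCFD2W (133 against 269.7 TPM) its mean was below that of *Cyp4a10*. It was lower in the knockout means of all 3 experiments without passing in any. In HFCFD2W the controls had 437, 460.4, 370.0, 344 and 405 CPM and the knockout mice 222, 228, 332, 426 and 340.4 CPM, so that 4 of 5 knockout mice were below all controls, with a log2 fold change of -0.38 ± 0.17 (adjusted p = 0.138). It was -0.53 (adjusted p = 0.029) without knockout replicate 5. In HFCFD8W+T10D, 4 of 5 were again below all controls (576.5, 869, 933 and 883 against 1108 to 1570 CPM), and knockout replicate 2, at 1503 CPM, was not. The log2 fold change was -0.41 ± 0.22 (adjusted p = 0.232), and -0.64 (adjusted p = 0.033) without that mouse. In HFCFD12W+T10W the controls ranged from 668 to 2004 CPM and the knockout mice from 683 to 1277 CPM, with a log2 fold change of -0.50 ± 0.25 (adjusted p = 0.113). Leaving out control replicate 4, at 668 CPM, gave -0.69 (adjusted p = 0.0119), while leaving out control replicate 5 gave -0.32 (adjusted p = 0.271). In each experiment 10 fits left out 1 mouse, and 9 of them did not pass. The highest adjusted p among these fits was 0.259, 0.407 and 0.271 in the order of the experiments.

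*Vnn1* (ENSMUSG00000037440.8, chr10:23894688-23905343, plus strand), which also shares no 50-base stretch, had a smaller difference with little spread in HFCFD12W+T10W. The controls had 154.5, 134, 162, 154 and 152 CPM and the knockout mice 97.9, 102, 115, 103 and 71.0 CPM. No knockout mouse reached the lowest control, and the log2 fold change was -0.58 ± 0.11 (adjusted p = 0.000858). This call depended on the scaling: with unscaled library totals it was -0.22 (adjusted p = 0.0745), where the median of all genes was 0.384, and with limma on log2(TPM + 1) it was -0.24 (adjusted p = 0.0649). In HFCFD8W+T10D both groups ranged over about the same levels, 80.9 to 139.6 and 79.9 to 112 CPM, with a log2 fold change of -0.04 ± 0.15 (adjusted p = 0.884). In HFCFD2W the controls had 62.8, 88.8, 66.8, 63.2 and 65.6 CPM, and the knockout mice lay on both sides of them, with 48.9, 44.3, 109, 89.2 and 93.2 CPM. Here the log2 fold change was 0.15 ± 0.22 (adjusted p = 0.698). Without knockout replicates 2 and 3 it was 0.48 and passed as higher (adjusted p = 0.0171). That pair was chosen for its low *Cyp4a14* and is also the lowest of the knockout mice in *Vnn1*. Leaving it out raises the knockout mean by construction, so this fit cannot decide whether *Vnn1* was higher.

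*Pdk4* (ENSMUSG00000019577.6, chr6:5483351-5496309, minus strand) was the least abundant of the 9 per transcript length in the HFCFD12W+T10W controls, at a mean of 4.70 TPM, and spread over the widest range in the controls of HFCFD8W+T10D. Its controls there had 20.6, 16.04, 4.06, 9.96 and 45.4 CPM and its knockout mice 19.2, 41.7, 31.3, 27.04 and 9.59 CPM. The control values spread 11.2-fold and held the knockout range within them, with a log2 fold change of 0.43 ± 0.50 (adjusted p = 0.612), or 1.04 (adjusted p = 0.143) without control replicate 5. In HFCFD12W+T10W it was 0.42 ± 0.45 (adjusted p = 0.469), with 4.28 to 23.02 CPM in controls and 9.503 to 26.95 CPM in knockout mice. In HFCFD2W the controls lay between 1.24 and 2.67 CPM and 3 of 5 knockout mice above them, at 3.24, 8.94 and 2.82 CPM, with a log2 fold change of 0.84 ± 0.43 (adjusted p = 0.208). Without knockout replicate 5, the mouse at 8.94 CPM, it was 0.24 (adjusted p = 0.618).

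**Figure D3:**
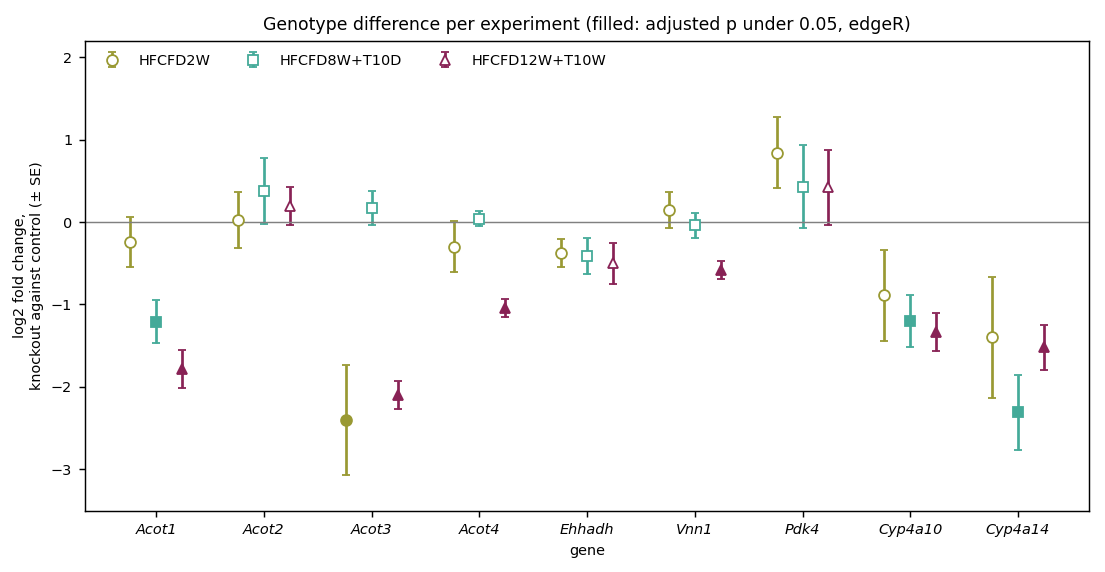
Log2 fold change of knockout against *Cebpa* fl/fl mice for each of the 9 genes, for HFCFD2W (circles), HFCFD8W+T10D (squares) and HFCFD12W+T10W (triangles), where filled symbols have an adjusted p under 0.05. Bars are ± 1 standard error, derived from the fold change and edgeR's F statistic. Filled symbols all lie below 0: *Acot3* alone in HFCFD2W, 3 genes in HFCFD8W+T10D and 6 in HFCFD12W+T10W.

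Whether the genotype difference itself changed between experiments was tested for each gene as an interaction in 1 edgeR fit of all 30 libraries. Of 27 such differences, 3 experiment pairs for each of 9 genes, 5 passed. *Acot3* passed in HFCFD8W+T10D minus HFCFD2W, with a log2 difference of 2.57 (adjusted p = 0.00639), where 1 of 9 genes passed against 11.2% of all genes. In HFCFD12W+T10W minus HFCFD8W+T10D, 2 of 9 passed against 10.5%: *Acot3* at -2.30 (adjusted p = 0.00203) and *Acot4* at -1.11 (adjusted p = 0.0191), while *Vnn1* did not pass in this pair. In HFCFD12W+T10W minus HFCFD2W, 2 of 9 passed against 30.7%: *Acot1* at -1.58 (adjusted p = 0.00578) and *Vnn1* at -0.77 (adjusted p = 0.0233). The differences of *Cyp4a10* and *Cyp4a14* between experiments did not pass in any pair, and the share of the 9 genes in the last pair was below that of all genes. Strain, duration of feeding, tamoxifen and batch differ together between HFCFD2W and the other experiments and cannot be told apart. Between HFCFD8W+T10D and HFCFD12W+T10W, the durations of feeding and of tamoxifen and the batch differ together and cannot be told apart either. *Acot3* in the first pair was at 1.93 (adjusted p = 0.025) without HFCFD2W control replicate 2 and at 3.29 (adjusted p = 0.00156) without knockout replicate 5, and *Vnn1* in the last pair did not pass without HFCFD12W+T10W knockout replicate 5 (adjusted p = 0.0587) or HFCFD2W knockout replicate 4 (adjusted p = 0.0614). Without scaling factors, *Acot4* (-0.90, adjusted p = 0.0763) and *Vnn1* (-0.37, adjusted p = 0.235) no longer passed.

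In the *Cebpa* fl/fl mice alone, 7 of the 9 genes were higher in HFCFD8W+T10D than in HFCFD2W, against 22.2% of all genes that were higher (43.6% either way). *Pdk4* rose most, from 2.12 ± 0.541 to 19.2 ± 15.9 CPM (SD, n = 5), a log2 fold change of 3.18 ± 0.63 (adjusted p = 0.000164), or 2.59 (adjusted p = 0.00127) without HFCFD8W+T10D control replicate 5. *Acot1* rose 4.95-fold (log2 fold change 2.31, adjusted p = 9.33e-07), without overlap between 16.5 to 26.9 and 72.3 to 156 CPM. *Ehhadh* rose from 403 ± 47.5 to 1280 ± 204 CPM (1.67, adjusted p = 2.99e-06). The other 4 were *Acot3* (1.79), *Acot2* (1.56), *Acot4* (0.97) and *Vnn1* (0.59), with adjusted p from 0.000246 to 0.0104, and *Acot3* was at 2.42 without HFCFD2W control replicate 2. *Cyp4a10* (0.65, adjusted p = 0.236) and *Cyp4a14* (1.14, adjusted p = 0.115) did not pass. *Cyp4a14* turned on single mice: it was 0.36 (adjusted p = 0.637) without HFCFD8W+T10D control replicate 5, and 1.59, which passed (adjusted p = 0.0441), without HFCFD2W control replicate 2. From HFCFD8W+T10D to HFCFD12W+T10W, *Acot3* (1.62, adjusted p = 0.00124) and *Acot4* (1.17, adjusted p = 6e-04) rose further, 2 of 9 against 6.31% of all genes that were higher (11.4% either way). Feeding time, tamoxifen and batch differ together in these comparisons and cannot be told apart. The clock genes *Arntl* and *Dbp*, named after their values were seen, also moved between the control groups: *Arntl* was at 0.502, 15.6 and 1.70 CPM and *Dbp* at 98.8, 4.04 and 42.2 CPM in HFCFD2W, HFCFD8W+T10D and HFCFD12W+T10W. In HFCFD2W, *Dbp* was lower in the knockout mice too (-0.96 ± 0.23, adjusted p = 0.0119). *Arntl*, too low there to be tested within the experiment, was at 1.07 to 5.05 CPM in the knockout mice and 0.138 to 0.891 CPM in the controls, and its genotype effect differed from that in HFCFD8W+T10D (-2.24, adjusted p = 0.0347) and HFCFD12W+T10W (-2.12, adjusted p = 0.0386). The part of the hour of sampling in these results was not tested.

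Ranked over the 6 groups, *Acot3* and *Acot4* were each highest in the HFCFD12W+T10W controls, with no overlap with the next group: the lowest control had 73.1 CPM of *Acot3* against 44.9 CPM in the highest mouse of the next group, and 181.5 CPM of *Acot4* against 118 CPM. For the other 7 genes the highest group overlapped with the next. *Cyp4a10* was the 1 gene for which all 3 control means, 561 to 881 CPM, were above all 3 knockout means, 303 to 379.6 CPM. *Acot2* and *Pdk4* ran the other way in part, with the highest mean in a knockout group: 14.8 ± 1.83 CPM of *Acot2* in HFCFD12W+T10W and 25.8 ± 12.2 CPM of *Pdk4* in HFCFD8W+T10D. In both cases the range overlapped with that of the controls of the same experiment.

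The 9 genes also varied together from mouse to mouse within groups. After each group's mean of log2 CPM was taken away, the correlation between 2 members over 30 libraries ran from 0.364 for *Acot4* and *Pdk4* to 0.905 for *Cyp4a10* and *Cyp4a14*. The next closest pair was *Acot3* and *Acot4*, at 0.885. *Vnn1*, which sits on another chromosome, followed *Cyp4a10* at 0.832. Every pair was positive. All pairs rest on the same 30 libraries and their depths, and these values are a description. In HFCFD2W the 2 low knockout libraries were low and the other 3 high in *Cyp4a10*, *Cyp4a14*, *Acot3*, *Acot1*, *Acot4* and *Vnn1* alike.

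**Figure D4:**
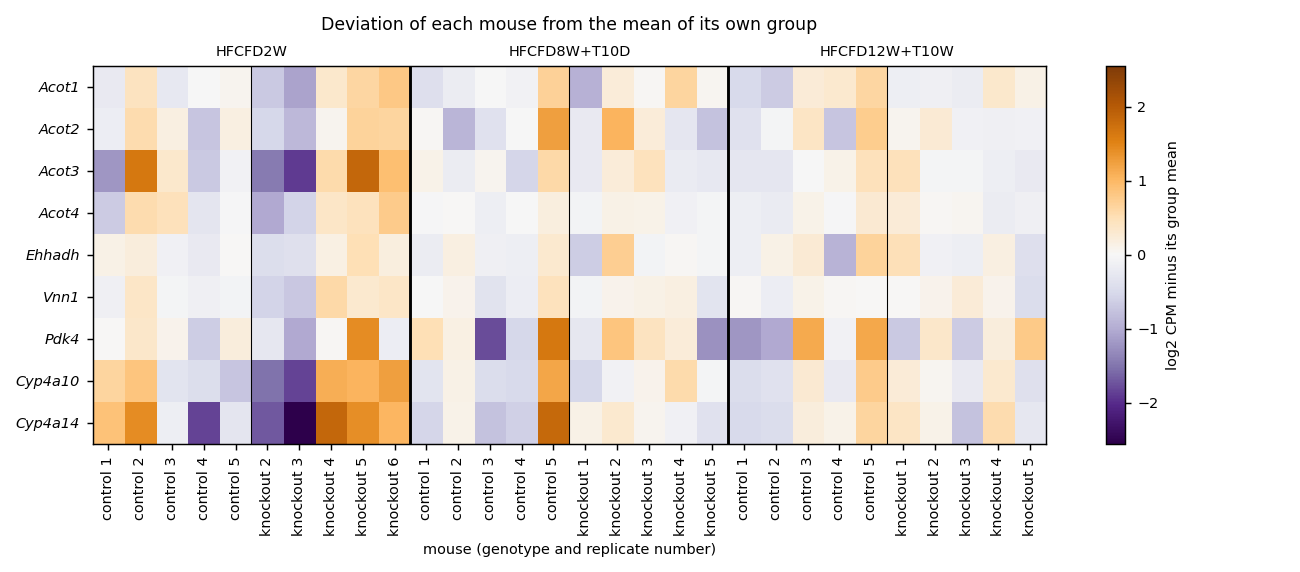
Log2 CPM of each of the 9 genes in each of the 30 mice minus the mean of its own group, from purple (below) to orange (above), with thick lines between experiments and thin lines between genotypes. Replicates 2 and 3 of the HFCFD2W knockout mice are below their group mean in all 9 genes, and replicate 5 of the HFCFD8W+T10D controls is above it in all 9.

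Outside the 9, the gene whose log2 CPM followed a member most closely over the 30 libraries was *Slc16a7*, a monocarboxylate transporter, for *Acot4* (r = 0.942) and *Vnn1* (r = 0.897), *Cd36*, a fatty acid transporter, for *Ehhadh* (r = 0.92), *Ech1*, an enzyme of unsaturated fatty acid oxidation, for *Cyp4a10* (r = 0.863), and *Cyp2c38*, a cytochrome P450, for *Acot3* (r = 0.909) and *Cyp4a14* (r = 0.86). *Tgoln1* was nearest to *Acot1* (r = 0.914), *Slc22a27* to *Acot2* (r = 0.925) and *Akap2* to *Pdk4* (r = 0.909). With group means taken away, *Cyp2c38* was again nearest to *Cyp4a14* (r = 0.817) and was also nearest to *Cyp4a10* (r = 0.804). The other nearest genes then were *Dlat* for *Vnn1* (0.886), *Btg2* for *Pdk4* (0.868), *Cers6* for *Acot4* (0.838), *Pctp* for *Acot3* (0.827), *Gsta2* for *Ehhadh* (0.794), *Ugt1a9* for *Acot1* (0.776) and *Myof* for *Acot2* (0.77). Each was picked as the highest r among the 12964 genes tested over all libraries, members left out. The first measure keeps the group means and so holds the differences between experiments. These values are a description.

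The receptor's own mRNA was lower in both induced experiments. *Ppara*, which encodes PPAR alpha, was at 172 ± 19.9 CPM in the controls and 88.0 ± 12.7 CPM in the knockout mice of HFCFD12W+T10W, a log2 fold change of -0.93 ± 0.11 (adjusted p = 2.2e-05). In HFCFD8W+T10D it went from 109 ± 17.6 to 71.0 ± 6.83 CPM (-0.60 ± 0.12, adjusted p = 0.0058), and in HFCFD2W from 146 ± 30.1 to 129.5 ± 18.2 CPM, which did not pass (-0.17, adjusted p = 0.43). Of 12 receptor and cofactor genes, 8 were lower and 0 higher in HFCFD12W+T10W, 3 lower and 0 higher in HFCFD8W+T10D, and 0 lower and 3 higher in HFCFD2W. For these and the following lists, the shares of all genes tested were 23.8% lower and 27.4% higher in HFCFD12W+T10W, 6.85% and 10.3% in HFCFD8W+T10D, and 8.09% and 8.60% in HFCFD2W. *Lpin1*, which works with PPAR alpha as a coactivator and also makes diacylglycerol, had 2.12 ± 0.37 (adjusted p = 0.00213) in HFCFD2W and -0.87 ± 0.16 (adjusted p = 0.000501) in HFCFD12W+T10W, the latter not passing in 1 fit of all libraries (-0.92, adjusted p = 0.0939). The coactivator gene *Ppargc1a* was higher in HFCFD2W (0.57, adjusted p = 0.0302), which was lost in 7 of 10 fits with 1 mouse left out and with limma on log2(TPM + 1) (0.25, adjusted p = 0.352). *Pparg*, which encodes the related receptor PPAR gamma, was lower in HFCFD8W+T10D (-0.73, adjusted p = 0.0409), lost in 7 of 10 such fits and with limma (-0.50, adjusted p = 0.227).

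Among other enzymes of peroxisomal oxidation, 16 of 22 tested were lower and 0 higher in HFCFD12W+T10W, 6 of 23 lower and 2 higher in HFCFD8W+T10D, and 5 of 22 lower and 2 higher in HFCFD2W. *Acsl1*, which activates long-chain fatty acids, was at 322 ± 70.5 against 1395 ± 399.5 CPM (-2.07 ± 0.21, adjusted p = 6.06e-06) in HFCFD12W+T10W and had a log2 fold change of -1.46 ± 0.17 (adjusted p = 0.000151) in HFCFD8W+T10D. *Pex11a*, which promotes the division of peroxisomes, had -1.14 ± 0.17 (adjusted p = 0.000103) in HFCFD12W+T10W. *Eci3*, an enoyl-CoA isomerase, rose from near 0 in HFCFD8W+T10D, from 0.172 ± 0.119 CPM in controls to 6.19 ± 1.83 CPM in knockout mice (adjusted p = 1.16e-05). In HFCFD2W, *Pex16* was lower (-0.76, adjusted p = 4.71e-05) and *Acox3* higher (0.58, adjusted p = 0.000784).

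Mitochondrial oxidation and ketogenesis showed 19 of 23 genes lower and 3 higher in HFCFD12W+T10W, 2 lower and 3 higher in HFCFD8W+T10D, and 0 lower and 1 higher in HFCFD2W. The higher gene in all 3 was *Ucp2*, an inner membrane carrier, at 1.45 ± 0.15, 1.12 ± 0.17 and 0.87 ± 0.12 in the same order, and the mitochondrial thioesterase *Acot9* was higher in both induced experiments (1.39, adjusted p = 3.74e-05, and 1.31, adjusted p = 0.00104). Of 21 other reported PPAR alpha targets tested, 11 were lower and 1 higher in HFCFD12W+T10W, and 2 lower and 1 higher in HFCFD8W+T10D. *Plin4*, a lipid droplet coat protein, was lower in both (-2.15 ± 0.30 and -3.66 ± 0.40), and *Retsat*, a retinol saturase, in HFCFD12W+T10W (-1.87 ± 0.19, adjusted p = 6.74e-06). *Mgll*, a monoacylglycerol lipase, was lower in HFCFD8W+T10D (-0.52, adjusted p = 0.0139), but not with limma on log2(TPM + 1) (-0.32, adjusted p = 0.224) or unscaled totals (-0.35, adjusted p = 0.0785). In HFCFD2W, 3 of 20 were lower and 3 higher, among them *Cd36* (-1.06, adjusted p = 0.0184) and *Angptl4*, an inhibitor of lipoprotein lipase (1.12, adjusted p = 0.00103). Without the 2 low knockout libraries *Cd36* was at -0.92 and did not pass (adjusted p = 0.0778). Paralogs and neighbours of the members were lower in 8 of 12 and higher in 2 of 12 genes tested in HFCFD12W+T10W, 5 lower and 1 higher of 12 in HFCFD8W+T10D, and 1 lower of 10 in HFCFD2W. *Cyp4a12a*, a male-biased omega-hydroxylase of the Cyp4a cluster, was at 42.8 ± 44.6 against 3.24 ± 2.18 CPM in HFCFD12W+T10W (-3.67 ± 0.91, adjusted p = 0.00472), with the controls spread from 0.505 to 100.3 CPM and overlapping the knockout mice. With limma on log2(TPM + 1) it did not pass (-2.01, adjusted p = 0.0745). *Pdk3*, a paralog of *Pdk4*, was higher there (1.90 ± 0.27, adjusted p = 9.38e-05), and *Cyp4a12a* (-2.43, adjusted p = 0.0216) and *Cyp4a12b* (-1.78, adjusted p = 0.029) were lower in HFCFD8W+T10D. With 1 mouse left out, these calls were lost in 3 of 10 fits for *Cyp4a12a* and 6 of 10 for *Cyp4a12b*, and with limma in both (adjusted p = 0.0529 and 0.0996). *Pdk2* was lower in HFCFD2W (-0.26, adjusted p = 0.0359), which was lost in 6 of 10 fits with 1 mouse left out and with limma (-0.12, adjusted p = 0.412). The median log2 fold change of the 5 lists ran from -0.41 to -0.79 in HFCFD12W+T10W, beside -1.038 over the 9 members and 0.013 over all genes tested.

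**Figure D5:**
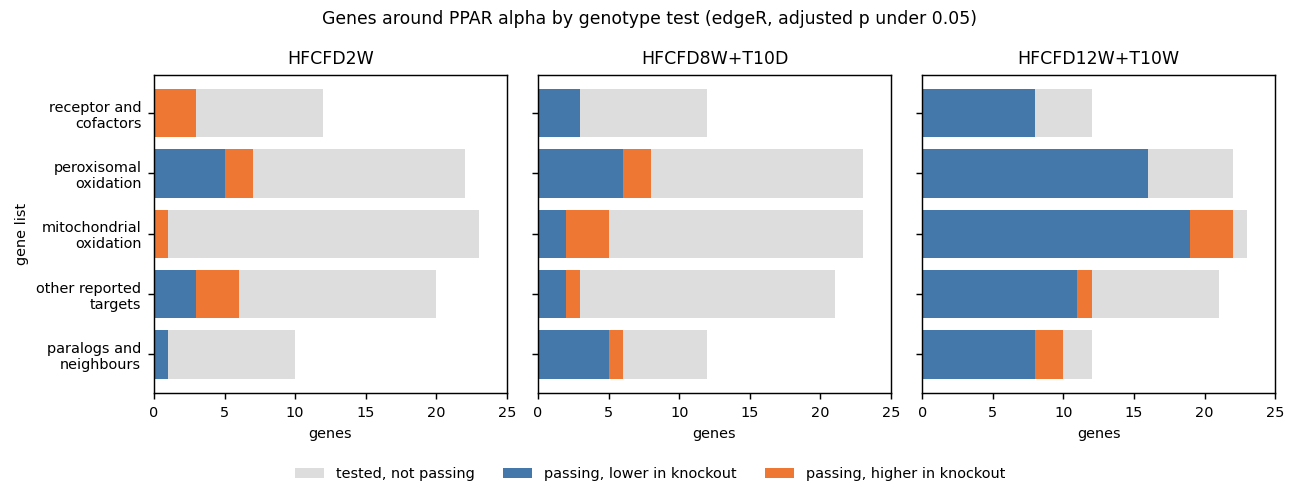
Number of genes in each of 5 lists around PPAR alpha that were tested (full bar, grey where not passing), passed as lower (blue) or passed as higher (orange) in knockout mice, by experiment, with the number of genes on the x axis. In HFCFD12W+T10W lower genes make up 8 of 12, 16 of 22, 19 of 23, 11 of 21 and 8 of 12 of the lists from top to bottom.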

How the data were processed

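Liver RNA of 30 mice in 6 groups was sequenced as stranded poly(A) libraries. Expected counts and TPM per gene were made by the authors with RSEM and deposited without further normalization of the expected counts. The submitters' processing notes name Trimmomatic 0.36, STAR 2.5.1, Picard 1.84, RSEM 1.2.22, DESeq2 and mm10, and gene identifiers are those of GENCODE M21. RSEM shares reads among genes that they fit equally, which makes single members of gene families less certain.

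Rounded expected counts went into edgeR 4.0.16 under R 4.3.3. Low genes were removed by filterByExpr, totals scaled by TMM, and genotypes compared within each experiment by quasi-likelihood tests whose p-values were adjusted by Benjamini and Hochberg's method across every gene tested. Interactions and comparisons of control groups came from 1 fit of all libraries. Standard errors are the absolute log2 fold change divided by the square root of the quasi-likelihood F statistic. The steps were tested on simulated data. CPM per mouse use TMM factors over all 30 libraries, and log2 CPM a prior count of 2. A count was taken as whole within 0.005. Sources name the replicates as biological, 1 library per mouse.

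The 9 members and all gene lists were chosen with earlier results of these data known. Named genes are the members, the 2 passing genes with the largest fold change of each list and experiment, and for each member the gene with the highest Pearson correlation. *Arntl*, *Dbp*, *Cyp4a31* and *Cyp4a32* were chosen after their values were seen. Alternatives were no count filter, upper quartile scaling, DESeq2 1.42.0, limma 3.58.1 on log2(TPM + 1) for genes with a mean TPM of at least 0.5, 1 fit of all libraries, a replicate block, each mouse left out, summed paralogs, an adjusted p under 0.01, a fold change over 2, and 1 or 3 motif mismatches. Unscaled totals and leaving out both low knockout libraries of HFCFD2W were added after the data were seen. Promoter windows are from RefSeq on GRCm38.p6.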

Additional observations from a re-analysis of the deposited data

Results flagged for a closer look

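Outlying mice were sought on log2 CPM, by the gap to the nearest mouse as a share of the group's range. Among 54 groups of 5 mice, 9 genes in 6 groups each, 2 held a mouse beyond Dixon's critical value of 0.71 for this share. Chance alone flags about 1 in 20 groups. On the CPM scale the flags can differ: control replicate 5 of HFCFD8W+T10D, at 1801 CPM of *Cyp4a14*, was not flagged on log2 CPM. *Acot3* was at 28.2 CPM in knockout replicate 1 of HFCFD12W+T10W, where the other knockout mice had 17.5 to 19.9 CPM. *Vnn1* was at 88.8 CPM in control replicate 2 of HFCFD2W, where the other controls had 62.8 to 66.8 CPM.

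A difference between experiments in the genotype effect was found for 5 of 27 tests. Of all genes tested, 11.2% passed in HFCFD8W+T10D minus HFCFD2W, 10.5% in HFCFD12W+T10W minus HFCFD8W+T10D and 30.7% in HFCFD12W+T10W minus HFCFD2W. For *Acot3* the log2 difference was 2.57 (adjusted p = 0.00639) in HFCFD8W+T10D minus HFCFD2W and -2.3 (adjusted p = 0.00203) in HFCFD12W+T10W minus HFCFD8W+T10D. For *Acot4* it was -1.11 (adjusted p = 0.0191) in HFCFD12W+T10W minus HFCFD8W+T10D. For *Acot1* and *Vnn1* it was -1.58 (adjusted p = 0.00578) and -0.77 (adjusted p = 0.0233) in HFCFD12W+T10W minus HFCFD2W.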

How the results depend on the processing

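In HFCFD2W the single member that passed, *Acot3*, did not hold throughout: 0 members passed at an adjusted p under 0.01, with the replicate block or with summed paralogs, and 0 to 2 when 1 mouse was left out. Without both low knockout libraries 1 passed, which was *Vnn1*, higher, and not *Acot3*. Those libraries were chosen as lowest in *Cyp4a14* and are also the lowest knockout mice in *Vnn1* and *Acot3*, so the choice itself favours both changes. In HFCFD8W+T10D, 2 to 4 members passed when 1 mouse was left out and 2 with limma on TPM. In HFCFD12W+T10W it was 6 to 7, and 6 under each other alternative on single genes except a fold change over 2, which left 5, although with limma on TPM and with unscaled totals the 6 were 5 lower and 1 higher (*Acot2*, adjusted p = 0.045 and 0.0491). For the difference in genotype effect in HFCFD12W+T10W minus HFCFD8W+T10D, 1 member passed at an adjusted p under 0.01, with limma on TPM and with unscaled totals. In HFCFD12W+T10W minus HFCFD2W, 1 passed at an adjusted p under 0.01, with upper quartile scaling and with unscaled totals, 0 with limma on TPM, and 1 to 3 when 1 mouse was left out. In the controls of HFCFD12W+T10W minus HFCFD8W+T10D, 2 to 4 passed, the latter without HFCFD8W+T10D control replicate 5. The cause of these changes was not tested. A fit that leaves mice out also has fewer mice.

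Changes of sign fell on values that had not passed. *Acot2* in HFCFD2W ran from -0.17 to 0.22 when 1 mouse was left out, and was -0.24 with the replicate block and -0.20 when summed with *Acot1*. That sum also gave -0.99 and -1.35 in the other experiments, since *Acot1* holds most of it. *Vnn1* in HFCFD2W was -0.05 with the replicate block and -0.01 to 0.29 with 1 mouse left out. In HFCFD8W+T10D, *Vnn1* was 0.14 with limma on TPM, 0.13 with unscaled totals and -0.13 to 0.09 with 1 mouse left out, *Acot2* was 0 to 0.85 and *Acot4* -0.01 to 0.09. Without both low knockout libraries of HFCFD2W, *Acot1* was 0.21 and *Acot4* 0.10, and leaving these libraries out raises both knockout means by construction.

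No pairing by replicate number was seen: same-number deviations over 2000 genes correlated at -0.24 to 0.08, -0.09 to 0.14 and -0.08 to 0.17 in the 3 experiments. Mice with different numbers were not compared, so this check cannot show that the mice were unpaired. With the replicate number as a block, *Acot3* in HFCFD2W was at -2.71 (adjusted p = 0.0959), with 4 pairs in place of 5 mice a group, and 3 and 6 members passed in the other experiments. Unscaled totals moved the median of all genes to 0.029, 0.195 and 0.384 in the 3 experiments. Beside this, the share of calls over all genes that were higher went from 60.0% to 66.0% (upper quartile) and 84.1% (unscaled) in HFCFD8W+T10D and from 53.5% to 63.3% and 88.0% in HFCFD12W+T10W. For the differences in genotype effect it went from 39.6% to 52.6% and 77.0%, from 47.5% to 66.5% and 83.4%, and from 43.6% to 61.6% and 87.0% for HFCFD8W+T10D minus HFCFD2W, HFCFD12W+T10W minus HFCFD8W+T10D and HFCFD12W+T10W minus HFCFD2W, and for the controls from 50.8% to 60.3% and 76.2% and from 55.2% to 45.0% and 67.9%. Of the member values tallied under alternatives, 459 with 1 mouse left out and 336 others stayed on the same side of 0 and of the threshold, 9 and 9 changed sign, 8 and 18 no longer passed, and 4 and 3 newly passed. For the differences in genotype effect and the controls of HFCFD12W+T10W minus HFCFD8W+T10D, only members that passed in the main fit were tallied. New passes and changes of sign of other members there are not counted.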
